A study of Mus musculus with 4 samples.

Results

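The insulin granule genes examined here were 10 genes for the hormones, granins and prohormone-processing proteins that fill the secretory granule of the beta cell. They were taken by gene name from the list of N6-methyladenosine (m6A) peaks of each genotype, and 9 of the 10 had a peak, among 7491 genes with a peak in either list. Together they held 14 of 10964 control peaks and 18 of 9411 knockout peaks. All islets came from mice aged 7 weeks and fed normal chow. Control islets were from Wtapflox/flox mice (RNA pooled from 10 animals) and knockout islets from Wtap-βKO mice (RNA pooled from 19), which lack Wtap in beta cells by the name of the line. The Cre driver was not given in the sources used here, and the non-beta cells of the islet are not named as targets of the deletion. Each genotype was 1 RNA pool, with 1 immunoprecipitated library (IP, enriched with an m6A antibody) and 1 input library. There were therefore no replicates, no test between genotypes was possible, and the values below describe these libraries.

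WTAP is a subunit of the nuclear complex that places m6A on mRNA, mostly near stop codons, in long internal exons and in 3′ untranslated regions. Insulin is made as a precursor that is cleaved in the maturing granule by the prohormone convertases PC1/3 (Pcsk1) and PC2 (Pcsk2) and trimmed by carboxypeptidase E (Cpe). Granins are acidic proteins that aggregate with the hormones and help them to enter the granule. The comparison asks which of these transcripts carried a called m6A peak with and without WTAP in beta cells.

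Of the 10 genes, 6 had peaks in both lists (Ins1, Chga, Chgb, Scg2, Pcsk1 and Pcsk2), 3 had a knockout peak alone (Ins2, Scg5 and Cpe), none had a control peak alone, and Iapp had no peak in either. Over all 7491 genes with a peak in either list, 55.2% were listed in both genotypes, 16.6% in the knockout alone and 28.2% in the control alone. The like base among the members is the 9 with a peak, without Iapp. Each of the 6 genes shared by the lists had at least 1 pair whose exon blocks overlapped on the same strand, which was so for 86.8% of all shared genes. The fold is the peak caller's ratio of IP over input within a peak, against the input of the same genotype. Granule peaks combined low folds with very low p-values. Their median fold was 2.40 for control and 1.73 for knockout peaks, against 3.95 and 3.43 over all peaks. Their median −log10 p was 31.2 and 24.4, against 6.10 and 6.16. In bulk RNA, fewer beta cells and less of a transcript per cell cannot be told apart, and both enter the reads behind a peak call.

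**Figure D1:**
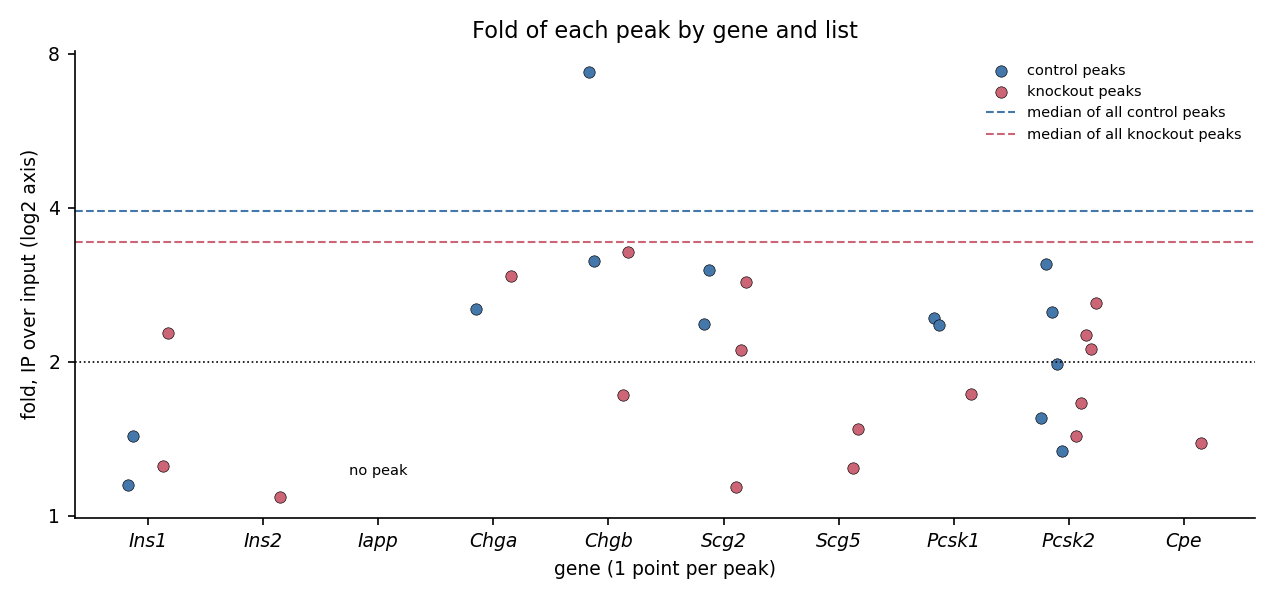
Fold of IP over input (log2 axis) for each listed peak of the 10 genes, 1 point per peak, with control peaks in blue and knockout peaks in red. Dashed lines are the medians over all peaks of each list (3.95 and 3.43) and the dotted line is a fold of 2; the first Chgb control peak, at 7.37, is the 1 member peak above the median of its list.

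Peaks reached the transcription start window of 3 genes, the 300 bases from 250 before to 50 after the RefSeq start on GRCm38.p6. Start windows were found for 8 of the 10 members, and that of Pcsk1 did not match the RefSeq start used here. The sequences are shown because these peaks lie at the annotated 5′ end. For Chgb both lists had peak bases in the window, at different places. For Pcsk2 the control peak alone reached the window, by 27 bases, and its knockout counterpart began just past it, at 143546186. For Scg2 the knockout peak alone reached the window, by 84 bases, and its control counterpart ended just outside it, at 79439970. Bases inside a listed peak are in capitals, from the control list for Chgb and Pcsk2 and from the knockout list for Scg2. The windows are chr2:132781392-132781691 on the plus strand for Chgb, chr2:143545883-143546182 on the plus strand for Pcsk2 and chr1:79439977-79440276 on the minus strand for Scg2.
Chgb: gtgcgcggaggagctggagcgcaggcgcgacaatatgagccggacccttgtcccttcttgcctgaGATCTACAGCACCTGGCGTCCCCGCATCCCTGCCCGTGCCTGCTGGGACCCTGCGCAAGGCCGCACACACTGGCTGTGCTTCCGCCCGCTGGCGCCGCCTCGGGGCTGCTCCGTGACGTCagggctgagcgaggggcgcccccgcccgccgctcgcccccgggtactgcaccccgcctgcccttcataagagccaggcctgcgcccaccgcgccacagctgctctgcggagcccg
Pcsk2: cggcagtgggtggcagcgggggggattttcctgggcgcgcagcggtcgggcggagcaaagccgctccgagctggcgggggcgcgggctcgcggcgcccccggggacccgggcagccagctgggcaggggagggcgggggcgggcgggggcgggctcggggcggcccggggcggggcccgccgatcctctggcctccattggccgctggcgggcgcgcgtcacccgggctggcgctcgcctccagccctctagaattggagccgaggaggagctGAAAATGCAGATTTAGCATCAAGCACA
Scg2: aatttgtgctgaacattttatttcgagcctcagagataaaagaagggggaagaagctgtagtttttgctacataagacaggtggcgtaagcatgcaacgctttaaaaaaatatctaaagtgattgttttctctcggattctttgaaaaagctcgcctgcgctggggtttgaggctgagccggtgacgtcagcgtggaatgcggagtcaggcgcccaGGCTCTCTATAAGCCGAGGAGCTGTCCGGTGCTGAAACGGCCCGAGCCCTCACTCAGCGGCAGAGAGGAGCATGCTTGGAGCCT
Counted from 1 at the 5′ end of the window, the Chgb control peak covered bases 66 to 185 and lay wholly before the RefSeq start. The Chgb knockout peak covered bases 214 to 300 of the same window and continued into later exons. The control peak of Chgb held 1 GGAC, the core letters of the commonest m6A site, at base 111 on the gene strand. The peak bases of Pcsk2 and Scg2 within these windows held none. GGAC or its complement GTCC occurs in 87.7% of all 32851 such windows, and GGAC on the gene strand in 65.6%. These shares are for whole windows of 300 bases. The peak parts were shorter, at 120 bases for Chgb, 27 for Pcsk2 and 84 for Scg2, so they cannot be read against them. The letters TGACGTCA, the palindromic cAMP response element, were found in 3 of the 8 member windows (Chgb, Scg2 and Pcsk1). Over all windows the share was 1.79%. These letters were not among the planned comparisons, and enrichment was not tested. The window listed for Pcsk1, chr13:75089607-75089906, lies wholly past the RefSeq start used here for that gene, 75089420. The Pcsk1 match is therefore not placed at that start. TGACGTCA contains neither GGAC nor GTCC, and a match of letters is a description of the sequence alone.

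Among the hormone genes, the insulin genes carried the lowest folds of both lists. Ins1 (ENSMUSG00000035804), which encodes insulin 1 from a compact rodent gene, had 2 peaks per list on chromosome 19, plus strand. The first lay at 52264799 to 52264978 in the control list with a fold of 1.15, the lowest of all 10964 control peaks. Its −log10 p of 308 was nevertheless the 14th highest of that list. In the knockout list the same peak ran to 52265008, with a fold of 1.25 and a −log10 p of 225, the 18th highest. The peak therefore stood at nearly the same place in both lists, close to the annotated 3′ end, from which it lay 37 nt in control islets and 7 nt in knockout islets.

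The second Ins1 peak began 83 nt past the RefSeq end of the gene, at 52265098, in both lists. The control peak ended at 52265366 (fold 1.43, −log10 p 23.9) and the knockout peak at 52265426 (fold 2.28, −log10 p 8.91). The peak caller's annotation assigned it to Ins1, whereas the RefSeq gene ends at 52265015. The knockout fold was the higher of the 2 and its −log10 p the lower.

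Ins2 (ENSMUSG00000000215), the insulin gene with the conserved mammalian structure, had 1 peak, in the knockout list, at 142678686 to 142678835 on chromosome 7, minus strand. Its fold of 1.09 was the lowest of all 9411 knockout peaks, while its −log10 p of 150 was the 29th highest. The peak came to 30 nt from the 3′ end of the gene, a position like that of the first Ins1 peak. The control list held no Ins2 peak. Ins1 and Ins2 transcripts are closely similar, and how reads mapping to both were assigned is not given in the sources used here, so the division of signal between them is uncertain. Iapp, which encodes the amyloid polypeptide released together with insulin, was in neither list. A missing peak is not a measure of absent m6A, since input and IP reads are not in the peak lists.

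The granin genes had the longest and most significant peaks of the 10. Chga (ENSMUSG00000021194) encodes chromogranin A, a granule protein also cleaved into bioactive peptides. It had 1 peak per list on chromosome 12, plus strand, from 102561348 to 102564729 in control islets and to 102564669 in knockout islets. Both peaks joined 4 exon blocks, of which the first 3 were identical at 156, 417 and 476 nt, and the last measured 120 nt for control and 60 nt for knockout islets. The folds were 2.54 and 2.94, and the −log10 p was 960 (4th of the control list) and 1430 (3rd of the knockout list).

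Scg2 (ENSMUSG00000050711), which encodes secretogranin II, the precursor of secretoneurin, had 2 control and 3 knockout peaks on chromosome 1, minus strand. The peak at 79435118 to 79435866 had a fold of 2.37 and a −log10 p of 478 in the control, and its knockout counterpart, ending at 79435806, had 2.11 and 677. The peak from 79436016 to 79439970 had a fold of 3.02 and a −log10 p of 402 in the control. Its knockout counterpart reached 79440060, with 2.87 and 616. Both held the same block of 1003 nt, and the small block at the 5′ end of the gene measured 15 nt for control islets and 105 nt for knockout islets, where it ended 34 nt before the RefSeq start. The third knockout peak, at 79434759 to 79434878, had a fold of 1.14, the second lowest of that list, with a −log10 p of 6.51 and no control counterpart.

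Chgb (ENSMUSG00000027350), the gene of chromogranin B, had 2 peaks per list on chromosome 2, plus strand. The longer control peak, at 132792339 to 132794066, was a single block of 1728 nt with a fold of 3.15 and a −log10 p of 255. All of it lay within a knockout peak at 132786526 to 132794752 that had a fold of 3.28 and a −log10 p of 653. That knockout peak added blocks of 21 and 1 nt in neighbouring exons to a main block of 1766 nt. At the 5′ end, the control peak at 132781457 to 132781576 had a fold of 7.37 with a −log10 p of 4.39. The knockout peak there began 28 nt further on, at 132781605, and joined 3 blocks to 132786467, with a fold of 1.72 and a −log10 p of 16.6. This control peak had the highest fold and the lowest −log10 p of the 14. Exactly this value was listed for 117 control peaks, so it is a repeated step of the fold scale.

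**Figure D2:**
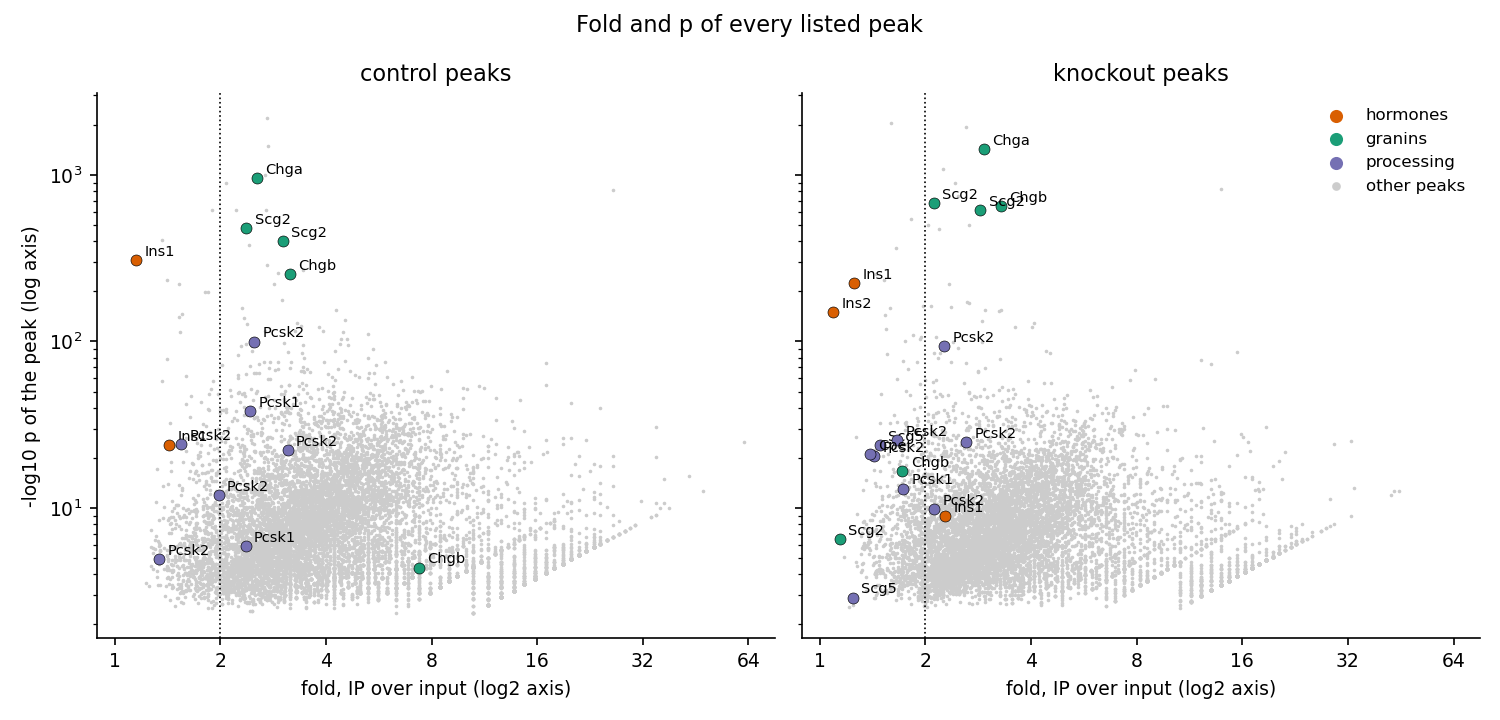
Fold of IP over input (x, log2 axis) against −log10 p (y, log axis) for every peak of the control list (left) and the knockout list (right). Grey points are all other peaks, and coloured points are peaks of hormone, granin and processing genes. The first Ins1 peak of each list and the Ins2 peak stand at the far left with high −log10 p. The second Ins1 peak is lower, at 23.9 in the control and at 8.91 with a fold of 2.28 in the knockout. Chga has the highest −log10 p of the 10 genes in both panels.

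The convertase genes had peaks in both lists, with the greatest number in Pcsk2. Pcsk1 (ENSMUSG00000021587) encodes PC1/3, which makes the early cuts in proinsulin. Its shared peak on chromosome 13, plus strand, lay at 75130127 to 75132434 in the control, with a fold of 2.43 and a −log10 p of 38.1. In the knockout it lay at 75130067 to 75132404, with a fold of 1.73 and a −log10 p of 13.1, and 90.0% of its bases were in the control peak. A second control peak at 75134531 to 75134801, which ended 60 nt before the RefSeq end of the gene, had a fold of 2.36 and a −log10 p of 5.90. No knockout peak of Pcsk1 overlapped it.

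Pcsk2 (ENSMUSG00000027419) encodes PC2, the second convertase of proinsulin and the main one of proglucagon in alpha cells. It had 5 peaks in each list on chromosome 2, plus strand, and 4 in each had a counterpart. The most significant lay at 143813349 to 143813858 in control islets and ended at 143813769 in knockout islets, with folds of 2.50 and 2.26 and −log10 p of 99.8 and 93.4, the 43rd highest of both lists. A shorter neighbour at 143814128 to 143814308 in the control had a fold of 1.98, and its knockout counterpart, shifted by 30 nt at both edges, had 2.12. The 3′ peak at 143816045 to 143816195 had a fold of 1.34 and a −log10 p of 4.95 in the control, ending 89 nt before the gene end. In the knockout this peak measured 361 nt in place of 151 nt, with a fold of 2.61 and a −log10 p of 24.8.

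At the 5′ end of Pcsk2, peaks at 143546156 to 143546426 (control) and 143546186 to 143546545 (knockout) overlapped by 241 nt, with folds of 1.55 and 1.43. These 2 peaks also lay within the span of Pcsk2os1, a long noncoding RNA gene, and whether the counting used strand is not given in the sources used here. The remaining peaks stood at different places. The control peak at 143574013 to 143574252 had the highest control fold of the gene, 3.11. The knockout peak from 143576709 to 143690367 joined 3 blocks of 26, 114 and 41 nt across introns, with a fold of 1.66. Their −log10 p was 22.2 and 25.6, so neither was a marginal call by p. By fold they stood at percentiles 31.5 and 2.51 of their lists.

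**Figure D3:**
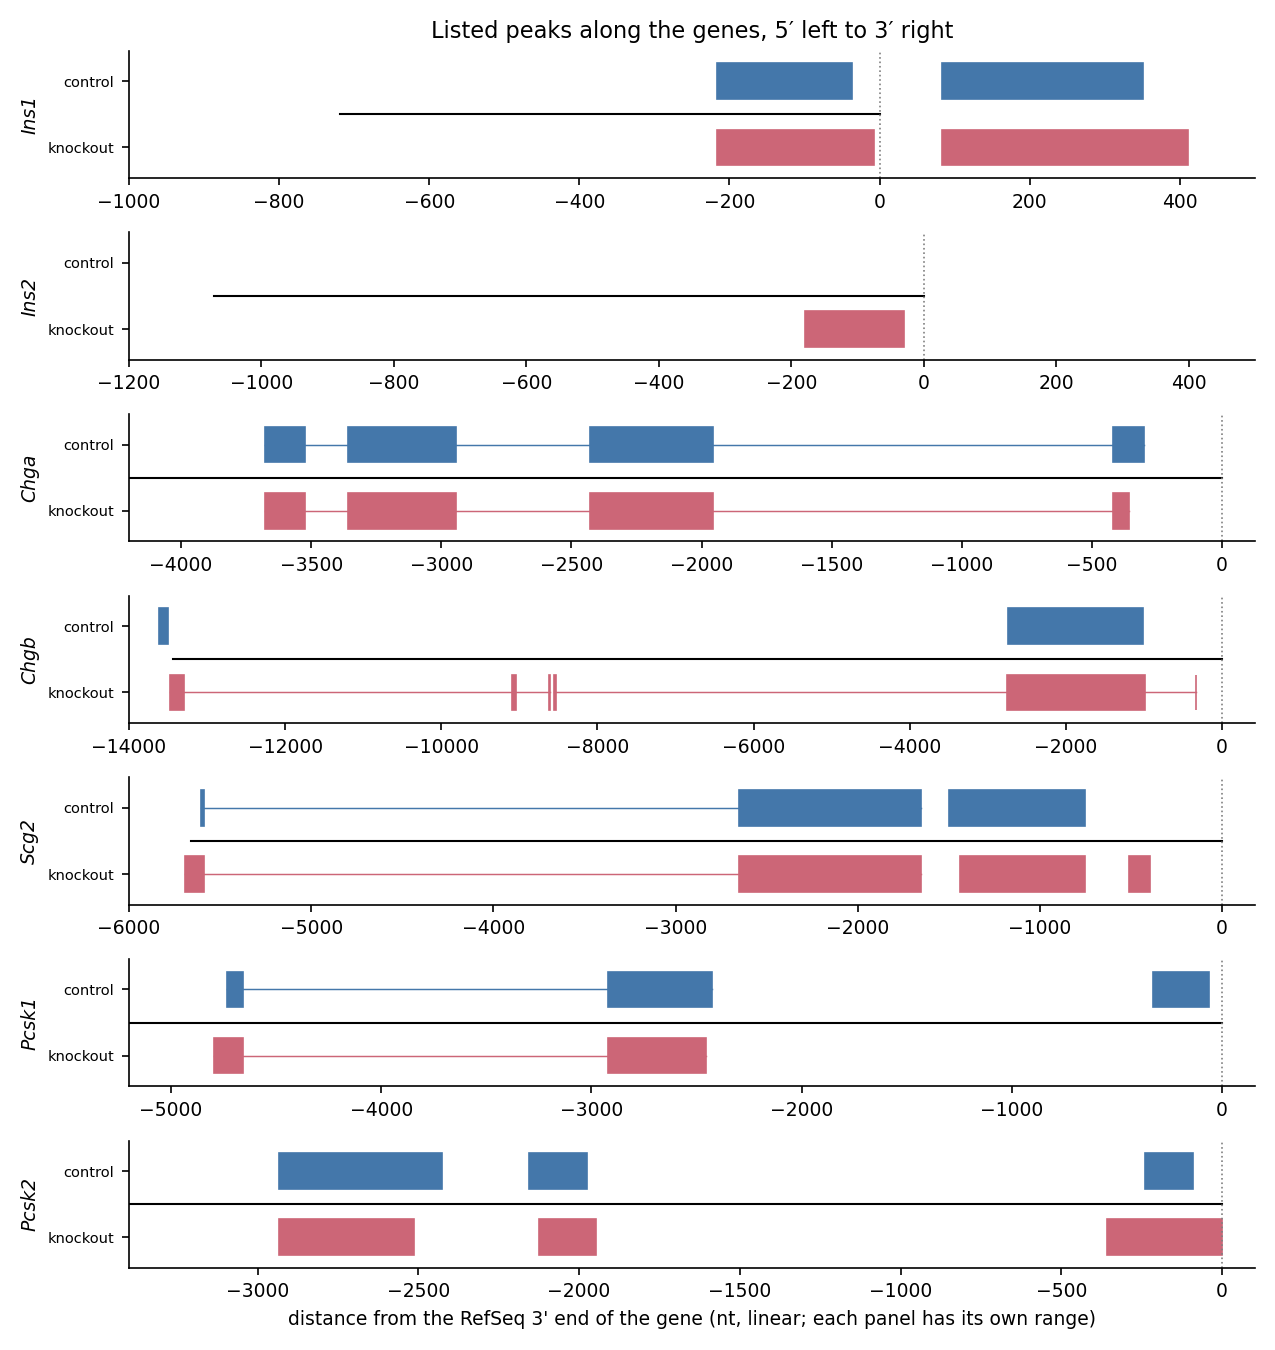
Listed peaks of 7 genes drawn to scale against the RefSeq 3′ end of each gene (0 nt, dotted line), with control blocks in blue above and knockout blocks in red below the gene line; thin lines join blocks of 1 peak. Panels have their own ranges, and for Pcsk2 the panel covers the last 3 of the 5 peaks per list. The Chga blocks and the long Scg2 blocks stack closely, the last Pcsk2 peak measures 151 and 361 nt, and the second Ins1 peak starts 83 nt past the gene end.

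Scg5 and Cpe were listed in the knockout alone, with low folds. Scg5 (ENSMUSG00000023236) encodes 7B2, the chaperone that PC2 needs to mature. On chromosome 2, minus strand, its larger peak joined 3 blocks of 210, 54 and 4 nt between 113776687 and 113788739, with a fold of 1.48 and a −log10 p of 23.9. Its other peak, at 113776392 to 113776510, ended 79 nt from the 3′ end of the gene with a fold of 1.24 and a −log10 p of 2.90. Cpe (ENSMUSG00000037852), whose product removes the basic residues that the convertases leave, had 1 peak on chromosome 8, minus strand. It joined 2 blocks of 78 and 193 nt between 64617628 and 64619543, with a fold of 1.39 and a −log10 p of 21.0. The 3 genes with a knockout peak alone thus held 4 peaks, all with folds below 1.5.

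Set beside all peaks, low folds and very low p-values were both frequent among the granule peaks. Folds below 2 were listed for 5 of 14 control peaks (35.7%), against 6.58% of all control peaks, and for 10 of 18 knockout peaks (55.6%), against 8.30% of all knockout peaks. At the same time 6 of 14 control and 7 of 18 knockout peaks were among the lowest 1% by p, which hold 1.01% of each list with ties. A q of 0 was listed for 3 of the 14 control and 4 of the 18 knockout peaks, all in Chga, Chgb and Scg2, against 0.119% and 0.159% of all peaks. Folds below 1.5 were listed for 3 of the 14 control and 7 of the 18 knockout peaks, against 0.866% and 1.22% of all peaks. The lowest 1% by fold held 3 of the 14 and 6 of the 18, against 1.03% and 1.04% of all peaks with ties. Most other low-fold peaks were less significant. Among the 95 control peaks with a fold below 1.5 the median −log10 p was 5.43, and 5 of them were in the lowest 1% by p, with the first Ins1 peak among them. The knockout list held 115 peaks below 1.5 with a median of 5.68, and 4 of these were in the lowest 1%, 2 of them being the Ins2 peak and the first Ins1 peak.

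Overlap between the lists was measured by peak, by edge and by base. Of the control member peaks 11 of 14 (78.6%) overlapped a knockout peak, against 51.6% of all control peaks. Of the knockout member peaks 11 of 18 (61.1%) overlapped a control peak, close to the 61.6% of all knockout peaks. The 11 pairs included 6 with an identical edge, against 26.7% of all 6317 pairs. By bases, 6497 nt were covered in both lists, which was 87.5% of 7427 control nt and 76.4% of 8505 knockout nt. The same shares over all peaks were 46.6% and 59.5%. Scg2, Chga, Chgb and Ins1 had at least 93.5% of their control bases in the knockout list, whereas Pcsk1 had 64.2% and Pcsk2 71.2%.

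The listed shares of long peaks, peaks over more than 1 exon block and genes with several peaks were higher among members than over all. They rest on few peaks and genes, and the differences were not tested. Control peaks over more than 1 block (3 of 14) and knockout genes with several peaks (5 of 9) stood nearest the overall shares. In both lists most member peaks were shorter than 600 nt, and most covered 1 exon block. A length of 600 nt or more was listed for 4 of 14 control peaks, against 8.38% of all, and for 5 of 18 knockout peaks, against 6.15%. Of the 6 member genes with a control peak, 5 had at least 2, against 40.3% of all genes in that list, and of the 9 with a knockout peak, 5 had at least 2, against 39.0%. More than 1 exon block was listed for 3 of 14 control peaks, against 11.7% of all control peaks, and for 8 of 18 knockout peaks, against 18.0% of all knockout peaks. In the control these were in Chga, Scg2 and Pcsk1. In the knockout they were in the same 3 genes and in Chgb (both peaks), Pcsk2, Scg5 and Cpe. Several carried only a few bases into a neighbouring exon, as the 4 nt block of Scg5 and the 1 nt block of Chgb.

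**Figure D4:**
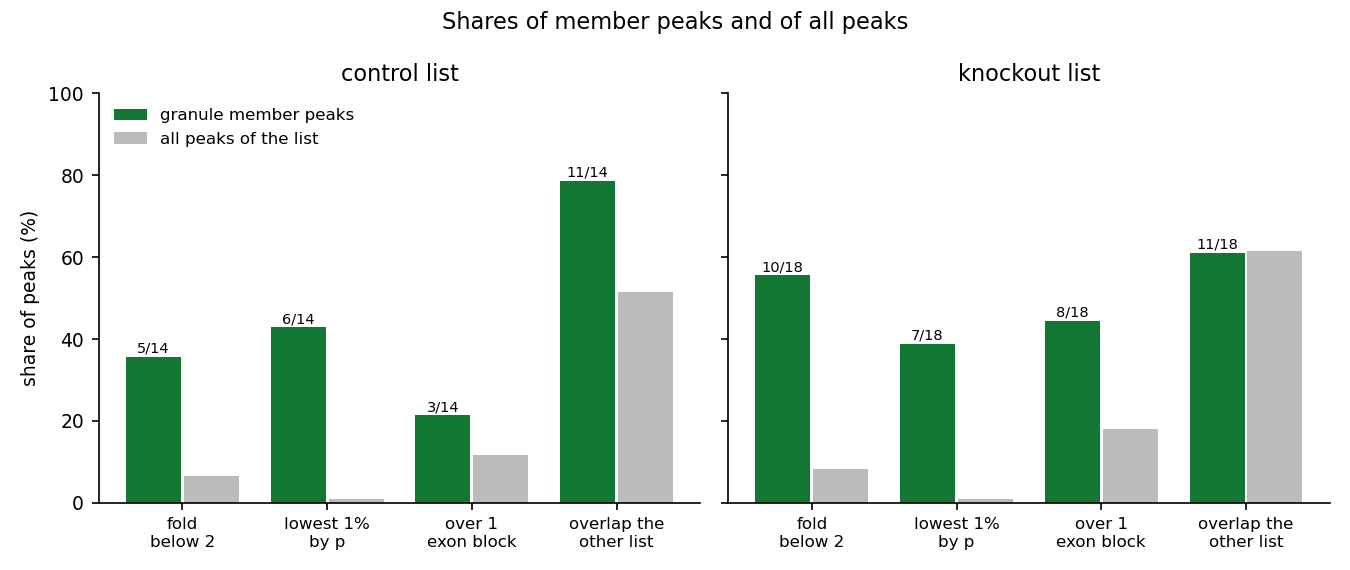
Share of peaks (%) with a fold below 2, in the lowest 1% by p, with over 1 exon block and overlapping the other list, for member peaks (green, with counts above) and all peaks (grey) of the control list (left) and knockout list (right). Member bars stand above the grey bars except for overlap in the knockout list, where they are 61.1% and 61.6%.

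Other granule genes were taken as 4 lists with 42 genes in all. Their median fold was 2.13 over control and 2.15 over knockout peaks, beside 2.40 and 1.73 for the 10 members. Of these 42, 24 had peaks in both lists, 5 in the control alone (Hid1, Baiap3, Pcsk6, Pcsk7 and Rab3a), 2 in the knockout alone (Cltrn and Ica1) and 11 in neither. Over all genes with a peak in either list, these shares were 55.2%, 28.2% and 16.6%. The like base here leaves out the 11 genes in neither list. Folds below 2 were listed for 21 of the 46 control peaks of these 42 genes (45.7%), against 6.58% of all control peaks. In the knockout they were listed for 20 of 45 peaks (44.4%), against 8.30% of all knockout peaks. Some had folds above any member: Pcsk7 had 23.2 and Pcsk6 8.95 in the control, Vgf 17.4 there and 8.76 in the knockout, and Eipr1 13.9 in the knockout, all named after their values were seen. Their −log10 p was 5.81, 6.9, 8.12, 15.9 and 3.44 in the same order. The member medians were 31.2 for control and 24.4 for knockout peaks. The islet peptide genes Gcg, Sst, Ppy and Ucn3, which encode glucagon, somatostatin, pancreatic polypeptide and urocortin 3, had peaks in both lists. Their most significant peaks had folds of 1.36 (Gcg), 1.54 (Sst), 1.53 (Ppy) and 2.67 (Ucn3) in the control. In the knockout these were 1.60, 1.58, 1.65 and 2.30 in the same order. Gcg had a knockout −log10 p of 2050, the highest of that list, against 406 in the control. In the same gene a low fold stood beside a very low p, as in the first Ins1 peak and the Ins2 peak.

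Granin-like and sorting genes were listed in the control for all 10 of 10 genes and in both lists for 8. Over all genes with a peak in either list, 55.2% were in both and 28.2% in the control alone. Scg3, a granin that binds the granule membrane, had 3 control and 4 knockout peaks, with −log10 p of up to 48.3 and 163. Pcsk1n, which encodes the inhibitor proSAAS, had a fold of 2.30 for control and 1.84 for knockout islets. Resp18 had 1.86 and 2.15, and Ccdc186, needed for granule maturation, 6.38 and 5.24. Among 10 other processing enzymes 5 had peaks in both lists and 3 in neither. The 5 included Ero1b, an oxidase of proinsulin folding, with folds of 2.50 and 2.54. Furin, the ubiquitous convertase, had 6.98 and 3.28. Pam, the amidating enzyme, had 2.07 and 1.90, and the carboxypeptidase gene Cpd 3.36 and 2.51. Among 12 granule membrane genes 6 had peaks in both lists and 3 in neither. The zinc transporter gene Slc30a8 had folds of 1.44 and 1.81, Ptprn2 1.98 and 2.59, and Rab27a 3.08 and 1.82. Cltrn, which encodes collectrin, had 2 knockout peaks and a fold of 1.48 at the more significant. All of these folds are those of the most significant peak of the gene in each list, which need not be the same site.

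By lowest fold, the first 5 named genes of the control list were Ins1 (1.15), Ddx5 (1.23), Hsp90ab1 (1.25), Maged1 (1.27) and Resp18 (1.27). In the knockout they were Ins2 (1.09), Scg2 (1.14), Scg3 (1.17), Gm5148 (1.24) and Scg5 (1.24). Members made up 1 of the 5 control and 3 of the 5 knockout genes.

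Markers of cell types were read from peak calls, since expression levels were not analysed here. A peak in at least 1 list was found for all 8 beta cell markers, 7 of them in the control list and 8 in that of the knockout. The eighth was Ins2, with a fold of 1.09. This marker set includes the members Ins1 and Ins2 and the islet peptide gene Ucn3, so it is not independent of the granule genes. Alpha cell markers had peaks for 3 of 5 genes in control islets and 4 in knockout islets, and delta and PP cell markers for 2 and 3 of 3. All 4 endothelial markers had peaks in both lists. Of 8 acinar markers 1 had a control and 2 a knockout peak, and of 4 ductal markers none had a control and 3 a knockout peak. Of 3 immune markers, C1qa had a peak in the control list alone, Cd74 in the knockout list alone and Ptprc in neither. The part of cell composition in the peaks of the granule genes was not tested.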

How the data were processed

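MeRIP-seq compared fragmented RNA bound by an m6A antibody with input RNA in islets of each genotype. Per the submitters' processing notes, the tools were fastp 0.19.11, BWA 0.7.12 and HOMER 4.9.1 and the build GRCm38 (mm10). Peak calling by the authors used exomePeak 2.16.0 with each IP set against its own input and q limited to 0.05, per the labels. The deposited p-value, its log10 and the log10 of q (unbounded score columns) and the deposited fold, a ratio of IP over input, are the authors' own values. They were used to describe peaks within a list, and values of both lists side by side are no measure of change. The −log10 p was preferred because q is 0 for some peaks. Depth per library is unknown, so no interval is given.

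Member peaks were taken by gene name with Python 3.11.15. Exon blocks overlapping by at least 1 nt on the same strand were called shared. File starts were read as 0-based and are printed 1-based. Gene spans and start windows are RefSeq, GRCm38.p6, matched by symbol. No test was run between the 2 pools. Overlap code was tested on simulated data. Members and lists were chosen with earlier results of these data known. All 10 members are named, and of the other lists up to 4 genes each by lowest q and the 5 lowest-fold genes per list; genes listed in 1 genotype alone were named after their values were seen. Alternatives are in the closing section. Motifs within most peaks were not analysed here.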

Additional observations from a re-analysis of the deposited data

How the results depend on the processing

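No paired analysis was possible because there was a single pool per genotype, and for the same reason no replicate could be left out. The members with a peak numbered 6 in the control and 9 in the knockout list, and these counts were equal with q at or below 0.001, with equal numbers of peaks per list and with RefSeq gene spans. At a fold of at least 2 the knockout list held 5 members in place of 9 (Ins1, Chga, Chgb, Scg2 and Pcsk2), and the control list 5 in place of 6, without Ins1. At that limit 5 member peaks of each list overlapped the other list, in place of 11, because low-fold peaks are removed. A fold limit of 1.5 in place of 2 left 3 low-fold control peaks in place of 5 and 7 knockout peaks in place of 10. Overlapping peaks were 10 per list under a 50% reciprocal overlap and 12 within 200 bp. Median folds by strongest peak per gene were 2.78 and 2.28. Calls with few reads depend on depth, which is unknown.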
